A study of Homo sapiens and Mus musculus with 74 samples.

Results

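The translation elongation factors followed here are 10 mouse genes of the 22484 coding genes in the count table. They are Eef1a1, Eef1a2, Eef1b2, Eef1d, Eef1g, Eef2, Eef2k, Eif5a, Eif5a2 and Tpt1. They were chosen by gene symbol as a set of known function, by a choice made with earlier results of these data known, and each is shown by the listed transcript with the longest protein. The 10 genes have 76 of the 142604 transcripts listed.

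The study removed Rpl41, which encodes the smallest of the ribosomal proteins, and asked how translation changes without it. Rpl41-/- mice (KO) were made by deleting the whole coding sequence with CRISPR-Cas9 in C57BL/6J zygotes. They were compared with wild-type (WT) mice in kidney and brain, tissues that mix many cell types. The lysates for Ribo-seq came from 10-week-old males. The paper's figure legends also give male mice for RNA-seq and disome-seq, and the sources used here give no age for those libraries. There were 3 WT and 3 KO libraries each of kidney RNA-seq, kidney Ribo-seq, kidney disome-seq, brain RNA-seq and brain Ribo-seq, 30 in all. RNA-seq counted poly(A) RNA, Ribo-seq counted the fragments that single ribosomes shield from RNase I, and disome-seq counted the longer fragments shielded by a pair of stacked ribosomes. In KO libraries, Rpl41 had 3 to 8 reads in kidney RNA-seq against 3695 to 7502 in WT, and 6 to 12 against 8981 to 12199 in brain RNA-seq.

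During elongation, eEF1A carries each aminoacyl-tRNA to the ribosome as a complex with GTP. The eEF1B complex, built from the products of Eef1b2, Eef1d and Eef1g, exchanges the spent GDP, and eEF2 moves the ribosome to the next codon until the kinase encoded by Eef2k phosphorylates and inactivates it. eIF5A carries the amino acid hypusine and helps ribosomes over stretches that form peptide bonds slowly, and the Tpt1 product, also called TCTP, binds eEF1A. In adult mammals Eef1a2 is known to replace Eef1a1 in neurons and striated muscle, and Eif5a2 is a further, narrowly expressed copy of Eif5a.

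A footprint or read within the coding sequence can tell the paired genes apart only where their coding sequences differ. The first 30 coding bases of each pair are shown for this reason, on GRCm38 and in the 5′ to 3′ direction, with the bases that differ within a pair in capitals. Eef1a1 begins in exon 2 on the minus strand at chr9:78480625-78480654, and Eef1a2 in exon 2 on the minus strand at chr2:181155377-181155406. Eif5a begins in exon 3 on the minus strand at chr11:69919286-69919315, and Eif5a2 in exon 2 on the plus strand at chr3:28782052-28782081.
Eef1a1: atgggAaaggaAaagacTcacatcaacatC
Eef1a2: atgggCaaggaGaagacAcacatcaacatT
Eif5a: atggcagaTgaTTtGgaCttcGAGacAgga
Eif5a2: atggcagaCgaAAtTgaTttcACTacTgga
In these windows 4 bases separated Eef1a1 from Eef1a2, and 9 separated Eif5a from Eif5a2. Over the whole coding sequence, stop codon included, Eef1a1 and Eef1a2 shared 80.0% of 1392 aligned positions. Of their 276 differing bases, 224 (81.2%) lay at the third base of a codon. The longest run that both genes held was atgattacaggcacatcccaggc, of 23 bases. Eif5a and Eif5a2 were 72.3% identical, with 94 of 126 differing bases (74.6%) at the third codon base and a longest shared run of 14 bases (ggagatgcaggggc). No stretch of 28 bases of coding sequence was shared within either pair, but footprints shorter than the 23-base run could fall inside it.

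Copies elsewhere in the genome bore on some members more than the paired gene did. Of the 28-base words of the Eef1a1 transcript, 87.7% occurred at a further place in GRCm38. The share was 71.6% for Eef1g, 62.3% for Tpt1, 38.9% for Eif5a and 31.1% for Eef2. It was 14.7% for Eef1b2, 13.0% for Eef1d, 9.08% for Eif5a2, 2.69% for Eef2k and 0.146% for Eef1a2. By this measure the counts of Eef1a1, Eef1g and Tpt1 are the least certain, since reads with several matches were allowed. The counts of Eef1a2 are the most specific to the gene. The shares hold for words of 28 bases, and they were not measured for the lengths of RNA-seq reads or disome fragments.

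Total counts ranged from 44998381 to 55077048 in kidney RNA-seq, from 84433838 to 123745890 in brain RNA-seq, from 11036643 to 42452425 in kidney Ribo-seq, from 9498663 to 35881929 in brain Ribo-seq and from 1187636 to 3018963 in disome-seq. Summed markers of neurons and kidney tubule fitted the tissue labels. Neuronal genes (Snap25, Syt1, Rbfox3 and Slc17a7) came to 1373 to 1586 CPM (counts scaled to a common library total) in brain RNA-seq and to 0.206 CPM or less in kidney RNA-seq. Kidney tubule genes (Slc34a1, Lrp2, Umod, Aqp2 and Kap) came to 12758 to 18428 CPM in kidney RNA-seq and to 0.468 CPM or less in brain RNA-seq. In Ribo-seq the tubule genes came to 4403 to 6496 CPM in kidney and to 1.56 to 10.2 CPM in brain. The neuronal genes came to 760 to 1034 CPM in brain Ribo-seq and to 0.425 CPM or less in kidney Ribo-seq.

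Per kilobase of transcript, Eef1a1 had the highest RNA of the 10 genes in brain, and Eef1a2 and Eef1a1 had the most footprints. WT brain footprints came to 176 ± 18.7 CPM per kilobase for Eef1a2 and 151 ± 14.7 for Eef1a1 (SD, n = 3 for these and all group means below). The libraries of this pair overlapped. Eef2 followed at 86.8 ± 3.36, Tpt1 at 82.0 ± 10.2 and Eif5a at 50.3 ± 9.07 CPM per kilobase. Eef2 and Tpt1 overlapped, whereas every other pair of neighbours in this order was separate. The eEF1B subunits lay lower, with 28.2 ± 1.59 CPM per kilobase for Eef1g, 23.0 ± 1.60 for Eef1b2 and 8.87 ± 0.45 for Eef1d. Eif5a2 at 1.93 ± 0.38 and Eef2k at 0.70 ± 0.21 CPM per kilobase closed the order. The order depended on the length used. Per kilobase of coding sequence, WT brain footprints came to 264 ± 28.0 CPM for Eef1a2, 196 ± 19.0 for Eef1a1, 186 ± 23.1 for Tpt1, 156 ± 28.2 for Eif5a and 104 ± 4.03 for Eef2. Tpt1 then overlapped both Eef1a1 and Eif5a, and Eef2 lay below all 4 of these genes. On the same coding scale Eef1b2 (66.1 ± 4.61 CPM) lay above Eef1g (40.1 ± 2.27 CPM), and Eif5a2 (21.2 ± 4.11 CPM) above Eef1d (12.7 ± 0.65 CPM).

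**Figure D1:**
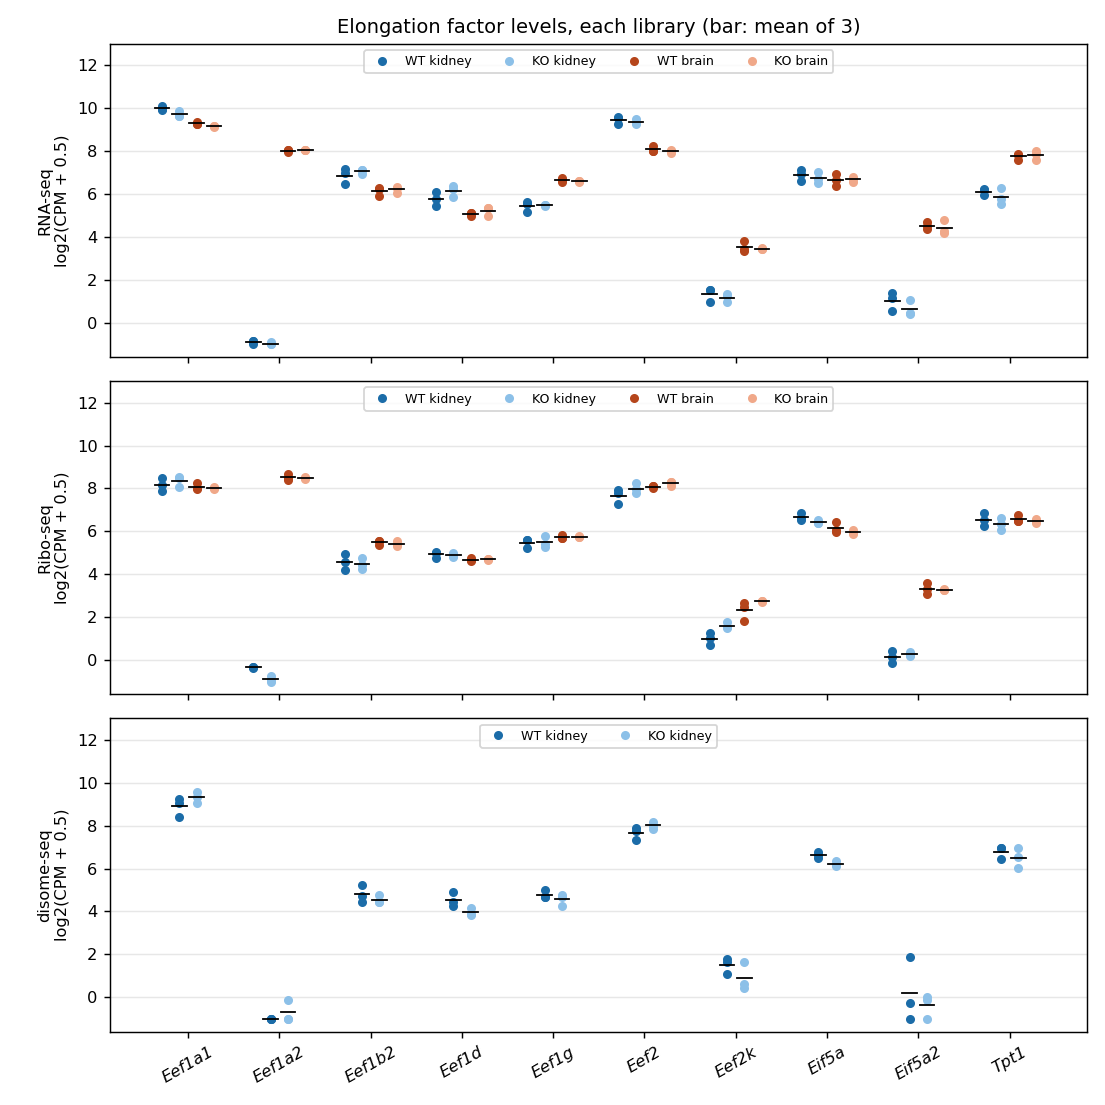
Levels of the 10 elongation factor genes as log2(CPM + 0.5), not divided by length, in RNA-seq, Ribo-seq and disome-seq (3 panels), with a point for each library and a bar for the mean of 3 libraries of WT or KO kidney or brain. Eef1a2 and Eif5a2 lie far lower in kidney than in brain, while KO and WT lie close together for most genes, as for Eef1a1 in brain Ribo-seq (261 ± 12.1 CPM in KO and 271 ± 26.3 CPM in WT, SD, n = 3).

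Eef1a2, the eEF1A gene of neurons and striated muscle, was the member with the largest tissue difference. Its RNA-seq counts were 22922, 24930 and 24003 in the WT brain libraries and 3, 0 and 3 in the WT kidney libraries, and its footprint counts were 7392, 3896 and 7347 in WT brain and 8, 4 and 4 in WT kidney. The tissues did not come near each other in either assay. With the kidney libraries set to a floor of 3 counts each, Eef1a2 RNA was at least 4173-fold higher in WT brain, and at least 4270-fold higher in KO brain than in KO kidney. For footprints the log2 difference between WT brain and WT kidney was 10.17 (SE 0.23, adjusted p = 1.7e-12). Eef1a2 entered this fit through its brain counts alone. The p-value therefore adds little to the counts, and the size rests on few kidney reads. Here and below, adjusted p-values come from the quasi-likelihood F-test of edgeR, corrected for all transcripts tested by the method of Benjamini and Hochberg. Disome-seq, made from kidney alone, gave no Eef1a2 read in WT libraries and 1 read in 1 KO library. The few kidney footprints stood beside summed muscle marker levels (Acta1, Ckm, Mylpf and Tnnt3) of 18.6 to 26.0 CPM in WT kidney Ribo-seq, against 0.722 to 1.80 CPM in WT kidney RNA-seq. These levels were not particular to WT kidney. They were 20.5 to 21.7 CPM in KO kidney Ribo-seq and 21.8 to 28.8 CPM in WT brain Ribo-seq, against 2.24 to 3.59 CPM in WT brain RNA-seq. The part of muscle in the kidney footprints of Eef1a2 was not tested. In bulk tissue, fewer cells of a type and less RNA per cell cannot be told apart.

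Eef1a1, the general eEF1A gene, went the other way in RNA. It stood at 1089, 1000 and 975 CPM in the WT kidney RNA-seq libraries and at 615, 650 and 623 CPM in WT brain. All kidney libraries lay above all brain libraries. The log2 difference, brain minus kidney, was -0.95 (SE 0.19, adjusted p = 0.0016). Footprints of Eef1a1 did not pass the test, with 294 ± 63.4 CPM in WT kidney, 271 ± 26.3 CPM in WT brain and a log2 difference of -0.20 (SE 0.17, adjusted p = 0.29). The 8 listed Eef1a1 transcripts ran from -1.33 to -0.45 in RNA, with 7 called, and from -0.25 to -0.13 in footprints. Eef1a1 also has many copies elsewhere. Its RNA values, and the shares and ratios built on them below, carry the limit described for Tpt1.

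The balance of the paired eEF1A genes in brain differed between RNA and footprints. Per transcript length, Eef1a2 made up 25.9%, 25.8% and 27.1% of the sum of Eef1a1 and Eef1a2 in the WT brain RNA-seq libraries. Its share of footprints was 54.8%, 53.9% and 52.6% in the WT brain Ribo-seq libraries. In KO brain the shares were 28.6%, 27.9% and 29.0% of RNA and 54.3%, 54.9% and 54.0% of footprints. Footprint shares of the genotypes overlapped, and RNA shares were higher in every KO library than in every WT library. This difference in share was not tested, and neither Eef1a1 nor Eef1a2 RNA passed the test between genotypes in brain. In kidney the share of Eef1a2 averaged 0.0873% or less in every group. With counts summed over the 8 listed transcripts of Eef1a1 and the single one of Eef1a2, the WT brain shares became 9.66% of RNA and 22.1% of footprints, because isoforms share reads and Eef1a1 is then counted several times.

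**Figure D2:**
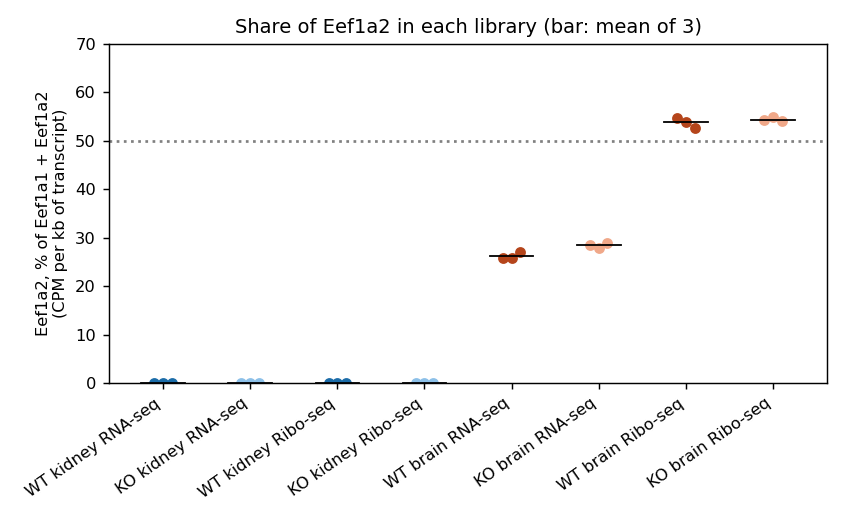
Share of Eef1a2 in the sum of Eef1a1 and Eef1a2, in percent per transcript length, with a point for each library, a bar for the mean of 3 and a dotted line at 50%. Brain Ribo-seq libraries lie above 50%, brain RNA-seq libraries between 25.8% and 29.0%, and kidney libraries near 0.

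Relative to RNA, footprints of the paired genes also took different places among all genes. The ratio of footprint to RNA CPM in WT brain was -1.22 ± 0.14 on the log2 scale for Eef1a1 and 0.49 ± 0.15 for Eef1a2, and 13.8% and 73.4% of 12650 genes, respectively, had a lower ratio. In WT kidney the ratio of Eef1a1 was -1.82 ± 0.31, with 5.55% of 11727 genes lower. Eef2 and Eef1b2 joined it there at -1.84 ± 0.34 (5.34% of genes lower) and -2.34 ± 0.39 (2.30% lower). Eef2 was at -0.03 ± 0.06 in WT brain, where 53.2% of genes were lower.

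Across the 10 genes, 9 of 10 passed the test for RNA between WT brain and WT kidney, 5 higher and 4 lower in brain. Among all 88731 transcripts tested, 64.1% passed (35.8% higher and 28.3% lower in brain), so a call by itself sets no member apart. For footprints, 6 of 10 passed, 4 higher and 2 lower, against 70.9% of 82957 transcripts (35.8% higher and 35.0% lower). The median log2 difference of the members was 0.25 for RNA and 0.24 for footprints, and that of all transcripts was 0.20 and -0.01. With library totals alone the RNA median of all transcripts was 0.45, and no member call for RNA changed direction. Tissue and any difference in library preparation between the tissues cannot be told apart.

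**Figure D3:**
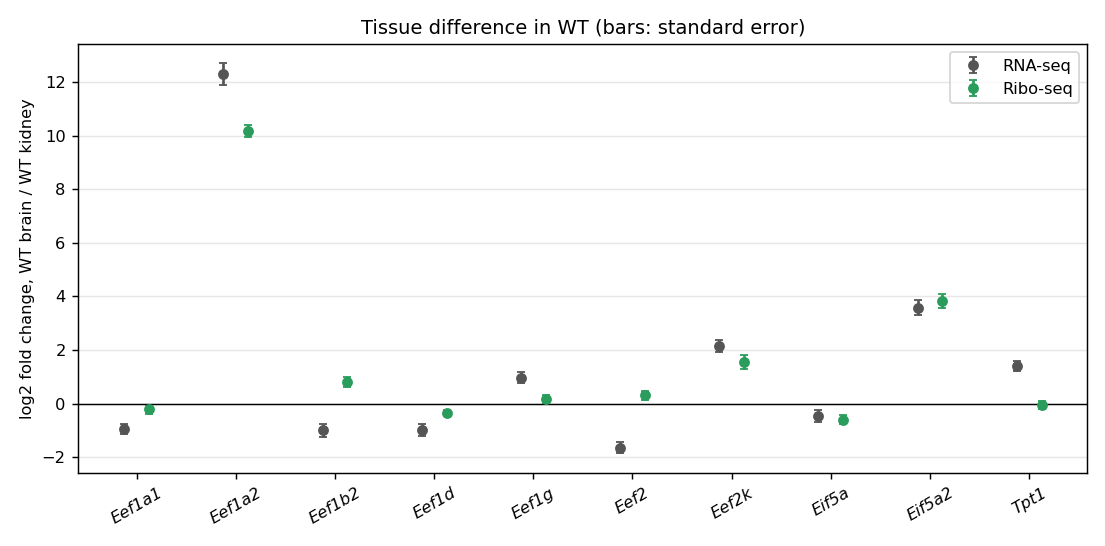
Log2 fold changes of the 10 genes, WT brain over WT kidney, for RNA-seq (grey) and Ribo-seq (green), with bars for the standard error. Eef1a2, Eif5a2 and Eef2k are higher in brain in both assays (the fitted RNA value of Eef1a2 rests on kidney counts at the floor), and Eef2 is lower in RNA (-1.65) but not in footprints (0.31).

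Eif5a2, the narrow copy of Eif5a, was the second tissue-restricted member. Its counts were 2085, 2390 and 1821 in WT brain RNA-seq and 86, 50 and 95 in WT kidney RNA-seq. Its footprints were 165, 90 and 257 in WT brain and 22, 6 and 8 in WT kidney. The tissues were separate in both assays, with log2 differences of 3.59 in RNA (SE 0.26, adjusted p = 1.0e-06) and 3.81 in footprints (SE 0.26, adjusted p = 1.1e-08). Eif5a, the general copy, was lower in brain in footprints, with 72.2 ± 13.0 CPM against 102 ± 11.4 CPM in kidney (log2 difference -0.60, SE 0.16, adjusted p = 0.0034). Its RNA difference of -0.46 missed the threshold (SE 0.21, adjusted p = 0.076). Per transcript length, Eef1a2 was the minor copy of its pair in brain RNA but not in brain footprints. Eif5a2 was the minor copy in both. Per coding length, it held 18.5 ± 1.28% of the RNA and 12.1 ± 2.71% of the footprints of the pair in WT brain, and per transcript length, the scale used for Eef1a2, 6.05 ± 0.48% and 3.76 ± 0.93%.

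Eef2k, the kinase that inactivates eEF2, was also higher in brain. It had 10.2, 9.59 and 13.6 CPM in WT brain RNA-seq and 2.39, 1.48 and 2.40 CPM in WT kidney RNA-seq, again without overlap (log2 difference 2.16, SE 0.22, adjusted p = 1.2e-05). The footprint difference was 1.56 (SE 0.26, adjusted p = 1.0e-04). Its target Eef2 had 756, 772 and 615 CPM in WT kidney RNA-seq and 262, 255 and 302 CPM in WT brain RNA-seq, a log2 difference of -1.65 (SE 0.20, adjusted p = 4.6e-05). Eef2 footprints did not show that fall. They came to 217, 154 and 239 CPM in WT kidney and 275, 274 and 256 CPM in WT brain, with a log2 difference of 0.31 (SE 0.16, adjusted p = 0.098). This value passed the threshold with DESeq2 (0.36, adjusted p = 0.041), with library totals alone (0.40, adjusted p = 0.034), with at least 10 counts in every library (0.38, adjusted p = 0.047) and without WT kidney Ribo-seq library 3 (0.43, adjusted p = 0.036).

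The eEF1B subunits did not move together. RNA of Eef1b2 and Eef1d, which encode the exchange subunits, was lower in WT brain than in WT kidney (log2 differences of -1.001 and SE 0.25 for Eef1b2, adjusted p = 0.0053, and -0.997 and SE 0.22 for Eef1d, adjusted p = 0.0024). RNA of Eef1g, the structural subunit, was higher, at 102 ± 6.71 CPM against 43.8 ± 7.27 CPM (0.96, SE 0.20, adjusted p = 0.0020), a value limited by the copies of this gene as described for Tpt1 below. Footprints of Eef1b2 were higher in brain, at 44.6 ± 3.11 CPM against 24.0 ± 6.48 CPM (0.81, SE 0.17, adjusted p = 8.8e-04). Eef1d footprints were lower (-0.36, SE 0.13, adjusted p = 0.021), a call that was lost with DESeq2 (adjusted p = 0.071), with library totals alone (0.074), without WT brain Ribo-seq library 1 (0.082) and without WT kidney Ribo-seq library 1 (0.069). Eef1g footprints showed a difference of 0.17 that did not pass (SE 0.13, adjusted p = 0.27).

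The Eef1d value covers isoforms that went in opposite directions. Its longest isoform, of 660 amino acids, starts in an upstream coding exon, and its first coding bases are given because some short transcripts confined to this 5′ region went the other way from the rest. They lie in exon 2 of the transcript on the minus strand at chr15:75903779-75903808, with the start codon in capitals.
Eef1d long isoform start: ATGaggagtgggaaggcctcttgtgcactg
A short listed transcript confined to this 5′ region (ENSMUST00000127550, chr15:75903262-75905363) had 121, 149 and 211 counts in WT brain RNA-seq and 0, 2 and 1 in WT kidney RNA-seq. Its footprints were 61, 31 and 77 in WT brain and 1, 1 and 0 in WT kidney. Every kidney library was below the floor of 3 counts, so it was at least 28.0-fold higher in brain in RNA and at least 18.0-fold higher in footprints. Of the 18 listed Eef1d transcripts, 2 were higher and 15 lower in brain RNA, and 3 were higher and 15 lower in footprints. The transcripts higher in both assays were ENSMUST00000127550 and ENSMUST00000141475, and ENSMUST00000145764 was higher in footprints (1.43, adjusted p = 0.0023). All 3 had too few kidney footprints to be tested between genotypes in kidney, and the first 2 also had too few RNA reads there. They entered those tissue fits through their brain counts alone, so their calls add little to the counts. The full transcripts of 660 amino acids, ENSMUST00000109975 and ENSMUST00000089681, were lower in brain, at -0.997 and -0.99 in RNA and -0.36 and -0.35 in footprints, and they share exons with the other isoforms. The transcript of 257 amino acids that lacks the exon (ENSMUST00000109972) had log2 differences of -1.20 in RNA (adjusted p = 8.9e-04) and -0.82 in footprints (adjusted p = 6.3e-05). In KO brain the 5′ transcript had 225, 73 and 93 RNA counts and 50, 112 and 86 footprints. Its footprints as a share of those of the whole longest transcript were 11.4% to 15.3% in KO brain and 12.2% to 14.1% in WT brain, and these ranges overlapped.

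Translation efficiency (TE) is the footprint change relative to the RNA change, tested as an assay by tissue term. Between WT brain and WT kidney, 5 of 10 members passed, 2 higher and 3 lower, against 19.9% of 96684 transcripts (5.99% higher and 13.9% lower). The median of all transcripts was -0.26, and it was 0.00 with DESeq2. TE was higher in brain for Eef2 (log2 difference 1.80, SE 0.25, adjusted p = 6.7e-05) and Eef1b2 (1.64, SE 0.33, adjusted p = 0.0023). It was lower for Tpt1 (-1.63, SE 0.26, adjusted p = 2.6e-04) and Eef1g (-0.96, SE 0.25, adjusted p = 0.013), both genes with many copies. The Eef1g call was lost with DESeq2 (-0.71, adjusted p = 0.065) and without any 1 of the WT brain Ribo-seq libraries (adjusted p = 0.070 to 0.11). The fifth call was Eef1a2, lower in brain, whose kidney RNA was at the floor, so its size cannot be read. Eef1a1 did not pass (0.58, SE 0.25, adjusted p = 0.12), but it did with DESeq2 (0.82, adjusted p = 0.013) and without WT brain Ribo-seq library 1 (0.88, adjusted p = 0.032) or 3 (0.85, adjusted p = 0.038) or WT kidney Ribo-seq library 3 (0.75, adjusted p = 0.044).

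For Tpt1 the tissue difference in RNA depended on which part of the gene was counted. The shown transcript had 69.5 ± 6.46 CPM in WT kidney RNA-seq and 217 ± 23.2 CPM in WT brain RNA-seq, a log2 difference of 1.40 (SE 0.19, adjusted p = 8.1e-05). A transcript over the start of the gene (ENSMUST00000128889, chr14:75845332-75845969) was lower in brain, at -1.16 (adjusted p = 7.8e-05), and one over the later exons (ENSMUST00000134040, chr14:75845900-75848297) was higher, at 3.06 (adjusted p = 4.0e-07). All 8 listed Tpt1 transcripts passed for RNA, 7 higher and 1 lower, and none of 8 passed for footprints, where log2 differences ran from -0.07 to 0.03. Counts of the transcript over the start equalled 96.6%, 94.9% and 97.4% of those of the shown transcript in WT kidney RNA-seq, and 15.0%, 15.6% and 18.8% in WT brain RNA-seq. In Ribo-seq of all groups they equalled 10.8% to 16.5%. Of the 28-base words that start in exon 1 of Tpt1, 12.9% occurred elsewhere in the genome, against 100% in exons 2 to 5 and 60.7% in exon 6. The shares at the length of the RNA-seq reads were not measured. The RNA and TE values of Tpt1 between tissues therefore stand beside an uneven spread of kidney RNA-seq counts along the gene, and the part of the copies in it was not tested. The sources used here do not say whether kidney and brain RNA-seq reads were aligned and counted with the same settings for several matches, so tissue and such settings cannot be told apart for these values. Eef1g, with copies of most of its exons, also showed a wide range between its transcripts in RNA (0.74 to 2.46) and a narrow one in footprints (0.08 to 0.20).

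**Figure D4:**
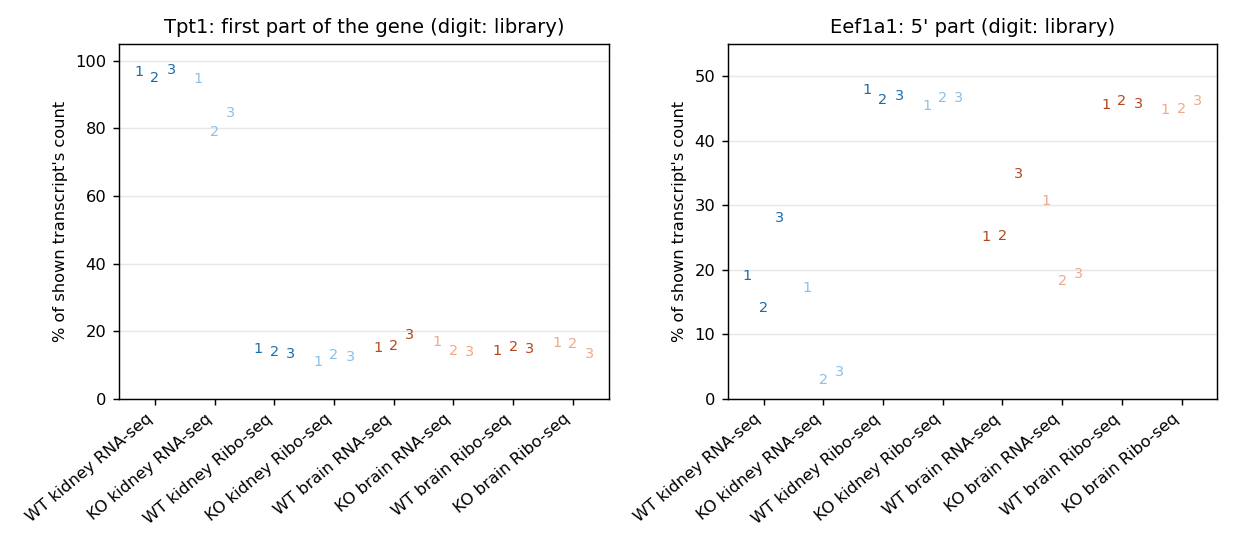
Counts of a transcript over the 5′ part of Tpt1 and of Eef1a1 as a percent of the counts of the shown transcript of the same gene, by group, with the digit of each mark giving the library. For Tpt1 the WT kidney RNA-seq libraries lie between 94.9% and 97.4% and all Ribo-seq libraries between 10.8% and 16.5%, and for Eef1a1 the KO kidney RNA-seq libraries 2 and 3 lie at 2.94% and 4.21%.

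The same view set KO RNA-seq libraries 2 and 3 apart. A transcript over the 5′ part of Eef1a1 held 19.0%, 14.0% and 28.1% of the counts of the shown transcript in WT kidney RNA-seq and 17.1%, 2.94% and 4.21% in KO kidney RNA-seq. In brain RNA-seq the shares were 25.1%, 25.3% and 34.9% in WT and 30.7%, 18.3% and 19.4% in KO. In Ribo-seq they stayed between 44.8% and 47.9% in all groups. These parts of genes were chosen after their values were seen. Without these libraries the KO group of each tissue is a single library, assumed in the fit to vary like the WT libraries, so its values are given with no test. The log2 fold changes of KO against WT RNA then ran from -0.47 (Eef2k) to 0.21 (Tpt1) in kidney and from -0.22 (Tpt1) to 0.19 (Eif5a2) in brain.

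Comparison of KO with WT addressed whether loss of Rpl41 changes the elongation factors themselves. No member passed the edgeR test in any of the KO comparisons within a tissue. In kidney RNA-seq 0 of 9 tested members passed, against 0.00992% of 70545 transcripts. In kidney Ribo-seq 0 of 9 passed, against 7.76% of 75266 transcripts. In disome-seq 0 of 7 passed, against 0.201% of 34754 transcripts. In brain RNA-seq and brain Ribo-seq 0 of 10 passed, against 0.0134% and 0.0345% of transcripts. At an unadjusted p under 0.05, there were 1 of 9 members in kidney RNA-seq (11881 of 70545 transcripts), 2 of 9 in kidney Ribo-seq (19064 of 75266) and 4 of 7 in disome-seq (3749 of 34754). There were 0 of 10 in brain RNA-seq (3087 of 89237 transcripts) and 1 of 10 in brain Ribo-seq (10214 of 81112). DESeq2 also called 0 members in each of them. Eef1a2, with at most 8 counts, was not tested in kidney, and Eif5a2 and Eef2k were not tested in disome-seq. The WT libraries are also those of the tissue comparisons.

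**Figure D5:**
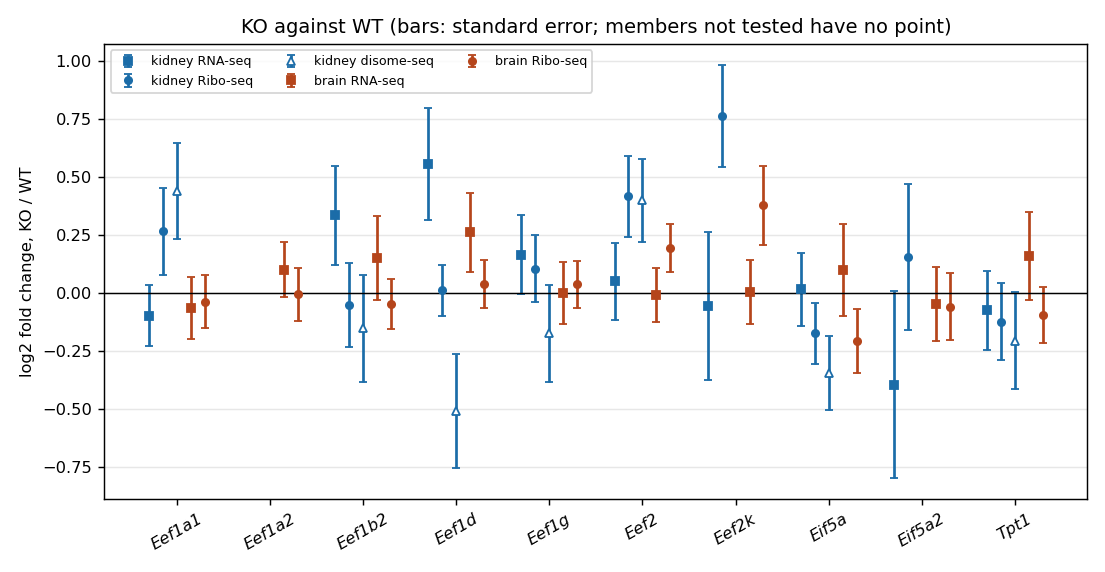
Log2 fold changes of KO against WT with standard errors for the tested members in kidney RNA-seq, Ribo-seq and disome-seq and in brain RNA-seq and Ribo-seq. None passed the test, and Eef2k in kidney Ribo-seq has the largest value, 0.76.

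The member nearest to a call was Eef2k in footprints. Its kidney Ribo-seq counts were 40, 28 and 15 in WT and 32, 98 and 96 in KO, which were 1.55, 1.88 and 1.11 CPM against 2.90, 2.31 and 2.44 CPM. All KO libraries lay above all WT libraries, at a log2 fold change of 0.76 (SE 0.22, adjusted p = 0.053). Of 4 tested Eef2k transcripts, 2 passed, ENSMUST00000106489 (0.89, adjusted p = 0.047) and ENSMUST00000106488 (0.88, adjusted p = 0.047), which share reads with the shown one. Brain footprints of Eef2k were 5.78, 3.05 and 5.01 CPM in WT and 6.18, 6.08 and 6.20 CPM in KO, again without overlap (0.38, SE 0.17, adjusted p = 0.39). Its RNA showed log2 fold changes of -0.06 in kidney (SE 0.32, adjusted p = 0.93) and 0.0020 in brain (SE 0.14, adjusted p = 1.0), and WT and KO libraries overlapped. Without KO RNA-seq libraries 2 and 3 these were -0.47 and -0.16. Summed kidney tubule genes were at 4403 to 5096 CPM in WT kidney Ribo-seq and 5193 to 6496 CPM in KO, and at 12758 to 16191 CPM in WT kidney RNA-seq and 16198 to 18428 CPM in KO, without overlap. Summed pancreatic enzyme genes overlapped, at 2.15 to 138 CPM in WT kidney Ribo-seq and 0.914 to 2.28 CPM in KO. Summed globin genes did not overlap in brain Ribo-seq, at 498 to 1374 CPM in WT and 269 to 343 CPM in KO. Their part in these values was not tested.

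Eef2, the target of that kinase, had 217, 154 and 239 CPM of footprints in WT kidney and 250, 219 and 303 CPM in KO kidney. The ranges overlapped, and the log2 fold change was 0.42 (SE 0.18, adjusted p = 0.16). Eef2 disomes gave 0.40 (SE 0.18, adjusted p = 0.41). Its kidney RNA gave 0.05 (SE 0.17, adjusted p = 0.88), and -0.12 without KO RNA-seq libraries 2 and 3. In brain, Eef2 footprints were 275, 274 and 256 CPM in WT and 281, 317 and 311 CPM in KO, with no overlap, and the log2 fold change of 0.19 did not pass (SE 0.10, adjusted p = 0.46). When transcripts with as little as 1 count in any library were kept, kidney footprints of Eef2k (0.81, adjusted p = 0.0094) and Eef2 (0.45, adjusted p = 0.0052) passed, against 7.81% of 127211 transcripts.

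Eef1a1 footprints in kidney were 294 ± 63.4 CPM in WT and 334 ± 58.7 CPM in KO, and the libraries overlapped (log2 fold change 0.26, SE 0.19, adjusted p = 0.40). Kidney RNA of Eef1a1 was 1089, 1000 and 975 CPM in WT and 943, 811 and 810 CPM in KO. The genotypes did not overlap in CPM, but after TMM scaling the log2 fold change was -0.10 (SE 0.13, adjusted p = 0.67). The 8 listed Eef1a1 transcripts ran from -1.39 to -0.10 in kidney RNA, with none called. The shown transcript was at -0.10, and the lowest was one over the 5′ part of the gene (ENSMUST00000156988). Counts over the 5′ part were a low share in KO kidney RNA-seq libraries 2 and 3, as given above. The bearing of that uneven spread on this range was not tested. In brain RNA, Eef1a1 was 615, 650 and 623 CPM in WT and 571, 584 and 554 CPM in KO, also without overlap (-0.07, SE 0.13, adjusted p = 0.92). Without KO RNA-seq libraries 2 and 3 the Eef1a1 values were -0.06 in kidney and -0.19 in brain. Eef1a2 in brain was close between genotypes, at 260 ± 9.72 CPM in WT and 264 ± 1.38 CPM in KO for RNA and at 367 ± 38.9 and 361 ± 10.4 CPM for footprints. The log2 fold changes of Eef1a2 were 0.10 (SE 0.12, adjusted p = 0.90) and -0.01 (SE 0.11, adjusted p = 0.99), and the RNA value was -0.02 without KO RNA-seq libraries 2 and 3.

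In kidney, Eef1a2 footprints were 8, 4 and 4 counts in WT and 0, 1 and 4 in KO. In CPM the KO libraries lay below the WT libraries, at levels where a few reads decide the order. Eif5a footprints in kidney were 102 ± 11.4 CPM in WT and 86.3 ± 5.78 CPM in KO, and the KO libraries lay below the WT libraries (-0.17, SE 0.13, adjusted p = 0.44). Over the 10 members, CPM ranges of KO and WT did not overlap for 1 gene in kidney RNA-seq, 3 in kidney Ribo-seq, 2 in disome-seq, 1 in brain RNA-seq and 2 in brain Ribo-seq. The same held for 20.7%, 29.4%, 17.3%, 9.82% and 18.4% of all transcripts tested, respectively.

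Among the eEF1B subunits, Eef1d RNA in kidney was 54.9 ± 12.1 CPM in WT and 71.9 ± 13.4 CPM in KO, with a log2 fold change of 0.56 (SE 0.24, adjusted p = 0.30). Without KO kidney RNA-seq library 1, the value was 0.74 and passed (adjusted p = 0.042). In that fit 12466 of 73294 transcripts (17.0% of all) passed as well, whereas 7 passed with all libraries. The KO group of that fit is libraries 2 and 3 alone, those set apart above by their 5′ shares. Eef1b2 RNA in kidney gave 0.33 (SE 0.22, adjusted p = 0.39) and Eef1g RNA 0.16 (SE 0.17, adjusted p = 0.58). Without KO RNA-seq libraries 2 and 3 the kidney RNA values were 0.10 for Eef1d, 0.11 for Eef1b2 and 0.05 for Eef1g. Footprints of these 3 subunits had log2 fold changes between -0.05 and 0.10 in both tissues, with adjusted p from 0.69 to 0.97.

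Disomes mark places where a ribosome has run up against another. Relative to footprints, Eef1a1 had many, with a log2 ratio of 0.71 ± 0.46 in WT kidney, above 82.1% of 5562 genes, and 0.93 ± 0.26 in KO kidney, above 85.8% of 5052 genes. Eef1g lay in the lower part of the genes in WT kidney, at -0.70 ± 0.20, with 21.6% of genes lower. Both Eef1a1 and Eef1g have many copies elsewhere in the genome, which limits these ratios. Disome counts of Eef1a1 were 1625, 1012 and 763 in WT and 1524, 1024 and 898 in KO, which were 539, 335 and 611 CPM against 656, 526 and 756 CPM. The genotypes overlapped, and the log2 fold change of 0.44 did not pass (SE 0.21, adjusted p = 0.44). WT and KO disome libraries of the same number deviated weakly together (correlations of 0.120 to 0.209), though no label pairs them. Within each of the 3 pairs by number, Eef1a1 was higher in KO. Eef2 was also higher in KO in each pair, at 217 against 256, 159 against 230 and 238 against 291 CPM. With the pairs as a block, the log2 fold changes were 0.47 for Eef1a1 (adjusted p = 0.081) and 0.41 for Eef2 (adjusted p = 0.15), and 0 of 7 members passed, as without it. Eif5a disomes were 98.9 ± 8.34 CPM in WT and 74.4 ± 6.09 CPM in KO (-0.35, SE 0.16, adjusted p = 0.43), and Eef1d disomes 23.2 ± 5.72 and 15.3 ± 2.11 CPM (-0.51, SE 0.25, adjusted p = 0.46). The KO libraries lay below the WT libraries for both genes.

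Ratios between assays did not separate the genotypes for any member. For TE, 0 of 10 passed in kidney and 0 of 10 in brain, with 0 at an unadjusted p under 0.05 in either and 0 by DESeq2, and 0.0% of all transcripts passed. The paper used RiboDiff and reported that TE changed significantly for many transcripts in each tissue. On simulated counts changed by 2 on the log2 scale, this test called 93 of 200 transcripts in kidney and 149 in brain. The absence of calls here therefore does not show unchanged TE. For disomes relative to footprints, 0 of 8 passed, again beside 0.0% of all transcripts and 0 by DESeq2. The single member at an unadjusted p under 0.05 was Eef2k, with 2 to 9 disome counts in WT and 1 to 6 in KO (-1.32, SE 0.61, adjusted p = 0.85). The TE fold change of Eef2k was 0.86 in kidney (SE 0.40, adjusted p = 0.27) and 0.43 in brain (SE 0.25, adjusted p = 0.89). The difference of the KO effect between brain and kidney was tested as a tissue by genotype term. It passed for 0 of 10 members in RNA (0.00108% of all transcripts, 0 members at an unadjusted p under 0.05) and for 0 of 10 in footprints (0.0767%, 1 member). DESeq2 gave 0 in both. That 1 member was Eef1a2 (2.29, SE 0.58, adjusted p = 0.25), with 0 to 8 kidney counts.

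Genes that modify the elongation factors were followed as lists. Diphthamide, a modified histidine of eEF2, is made by Dph1, Dph2, Dph3, Dph5, Dph6, Dph7 and Dnajc24, and Dhps and Dohh make the hypusine of eIF5A. None of the 7 diphthamide and 2 hypusine genes passed in any KO comparison, nor did any of 6 methyltransferase genes or of 7 organelle factors and other special elongation genes. At an unadjusted p under 0.05, the most in any list were 4 of 6 methyltransferase genes in kidney TE, where 16939 of 89685 transcripts were under it. No other tool was run for these lists. Between WT brain and WT kidney, 5 of 7 diphthamide genes passed for RNA, Dph7 higher (0.82, SE 0.24, adjusted p = 0.014) and 4 lower, such as Dph1 (-1.09, SE 0.19, adjusted p = 5.4e-04), and 2 of 7 passed for footprints. These counts, and those of the other lists between tissues, stand against 64.1% of all transcripts for RNA (35.8% higher, 28.3% lower) and 70.9% for footprints (35.8% higher, 35.0% lower). Neither hypusine gene passed for RNA, and both were higher in brain footprints (Dhps 0.82, SE 0.15, adjusted p = 2.6e-04, and Dohh 0.36, SE 0.15, adjusted p = 0.046).

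Methyltransferases of eEF1A and eEF2 were lower in brain where they passed, for 3 of 6 in RNA and 4 of 5 in footprints. Eef2kmt, which methylates eEF2, had log2 differences of -2.20 in RNA (SE 0.22, adjusted p = 1.2e-05) and -2.04 in footprints (SE 0.17, adjusted p = 9.2e-08). Of the organelle list, 5 of 7 passed for RNA, all lower in brain, and 7 of 7 for footprints, 6 of them lower. The mitochondrial elongation factor genes Gfm1 and Tsfm had RNA differences of -1.78 and -1.53 (adjusted p = 9.8e-06 and 2.4e-05) and footprint differences of -1.84 and -1.98 (adjusted p = 1.1e-08 and 1.0e-08). Tufm, which encodes mitochondrial EF-Tu, passed for footprints (-1.82, SE 0.12, adjusted p = 8.8e-09) and not for RNA (-0.20, SE 0.17, adjusted p = 0.31), and it was the single gene of these lists that passed for TE (-1.79, SE 0.20, adjusted p = 7.1e-06), against 19.9% of all transcripts.

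Over the 24 RNA-seq and Ribo-seq libraries, the genes whose log2 CPM was most like that of Eef1a2 among 5045 genes compared were Syt5, Nefl and Caly, each with Pearson's r of 0.999. Those most like Eef1a1 were Eif3e (r = 0.866), Pzp (r = 0.865) and Pabpc1 (r = 0.863). These values describe libraries of only 2 tissues and 2 assays, which for Eef1a2 fall into a brain and a kidney cluster.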

How the data were processed

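Ribo-seq, disome-seq and poly(A) RNA-seq were made from kidney and brain of mice, with 3 libraries a group. The authors trimmed reads with cutadapt, aligned them with STAR to mm10 with multimapping allowed, counted them with featureCounts (Subread) and deposited unnormalized read counts per transcript. The versions were not given in the sources used here. Nor was it given whether kidney and brain RNA-seq reads were handled with the same multimapping settings. The 30 mouse columns were used. Another table has 28 columns of values that are named as mouse samples although its transcripts are human, so none was used and the 44 HEK293T samples were not analysed here.

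Transcripts were matched to GENCODE M21 by identifier (141374 of 142604), and member sequences were read from GRCm38. All transcripts were fitted with edgeR 4.0.16 (filterByExpr, TMM, quasi-likelihood F-test, Benjamini-Hochberg threshold 0.05) in R 4.3.3, in 13 comparisons, with genotype or tissue and, for TE, assay as terms. Each SE was obtained by dividing the log2 value by the root of its F statistic. CPM divides by the library total, and a floor of 3 counts bounded folds. Folds bounded by the floor cover counting error only. Copies were counted as words of 28 bases found elsewhere in the genome. Genes compared for likeness had a mean CPM of 10 or more in RNA-seq and in Ribo-seq, and their log2 CPM (pseudocount 0.5) was centred within each assay.

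The fits were tested on simulated counts with 200 transcripts changed by 2 on the log2 scale. The test called 137 of them for KO against WT kidney RNA-seq, 200 for kidney Ribo-seq, 169 for brain RNA-seq, 200 for brain Ribo-seq, 200 for disome-seq, 93 for kidney TE and 149 for brain TE. Every KO value of a tested member within a tissue was smaller than 2 in size. These counts do not show how often changes of that smaller size would pass. The study's methods call the libraries biological replicates, but the labels tie none of them to an animal, so p-values measure the spread between these libraries. Deviations of same-numbered libraries correlated above 0.1 in every pair for WT and KO disome-seq (0.120 to 0.209), for RNA-seq with Ribo-seq in WT kidney, KO kidney and WT brain, and for Ribo-seq with disome-seq in both genotypes. They did not for WT and KO RNA-seq or Ribo-seq in either tissue.

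All 10 members were named, each by the transcript with the longest protein. The rule for the members uses gene symbols and no level, but this gene set, the lists and the markers were chosen with earlier results of these data known. Parts of genes and the exclusion of KO RNA-seq libraries 2 and 3 were picked once their values had been seen. Other settings tried were DESeq2 1.42.0, library totals alone, no filter, a minimum of 10 counts in all libraries of a fit, 1 transcript per gene, counts summed per gene, replicate blocks and each library left out in turn. Python 3.11.15 with numpy 2.4.6, pandas 2.3.3, biopython 1.88 and matplotlib 3.10.9 was used for tables and figures.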

Additional observations from a re-analysis of the deposited data

How the results depend on the processing

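No result changed direction past the threshold under any alternative run, and the cause of each change in calls was not tested. The count of members called between KO and WT was 0 under every alternative run except 2. It was 2 in kidney Ribo-seq with no filter (Eef2k and Eef2), and 1 in kidney RNA-seq without KO library 1 (Eef1d). The Eef1d call rests on KO libraries 2 and 3 alone, those set apart by their 5′ shares. Without KO RNA-seq libraries 2 and 3, where 1 KO library remains, the count of 0 says nothing about stability. With each library left out in turn, that count ranged from 0 to 1 in kidney RNA-seq and was 0 in the other KO comparisons. Between WT brain and WT kidney it ranged from 9 to 10 for RNA, from 5 to 7 for footprints and from 4 to 6 for TE. The replicate block, which pairs libraries of the same number, left the count at 0 for every KO comparison. This held also where same-numbered libraries deviated together, though no label pairs them. Between tissues the block gave 10 calls for RNA (Eif5a at -0.49, adjusted p = 0.043 from edgeR), 6 for footprints and 5 for TE. Eif5a RNA also passed without WT brain RNA-seq library 2 (-0.62, adjusted p = 0.041), and Eef1d TE without WT kidney RNA-seq library 3 (0.65, adjusted p = 0.037). Over all transcripts, the calls in kidney RNA-seq moved from 7 to 465 with DESeq2. Depth limits Eef1a2 in kidney, Eef2k in Ribo-seq and all low members in disome-seq.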
